A study of Fukomys damarensis and Heterocephalus glaber and Mus musculus with 160 samples.

Results

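Heart-only active enhancers of the naked mole-rat (Heterocephalus glaber, a subterranean African rodent) are stretches of chromatin that carried the histone marks of an active enhancer in heart and no consensus region of any measured mark in liver. They were chosen from deposited peak lists of chromatin immunoprecipitation followed by sequencing (ChIP-seq), in which an antibody recovers crosslinked chromatin and enriched places are called as peaks against an input library. A consensus region was a stretch where a peak of one library overlapped a peak of another animal by at least 50% of the shorter one, and the same overlap rule was used throughout. A member was a heart H3K27ac consensus region with heart H3K4me1, without heart H3K4me3, and with no liver region of the 3 marks. Of 64893 heart H3K27ac consensus regions, 5955 met the rule, which is 9.18% of them and 39.3% of the 15146 heart active enhancers. The other 9191 heart active enhancers overlapped a liver region and are called shared below. The rule used the presence of peaks in heart and liver, so those presences describe how members were chosen and are not findings.

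H3K27ac is an acetylated form of histone H3 found at active promoters and enhancers. H3K4me1 is found at enhancers whether or not they are active, and H3K4me3 is concentrated at promoters. Enhancers are DNA elements that raise the transcription of genes on the same chromosome, often over long distances, and their use differs far more between tissues than that of promoters. Hearts are built from contracting muscle cells together with fibroblasts, endothelial cells and blood cells, and livers mainly from hepatocytes, so a list from whole tissue mixes the chromatin of several cell types. In such bulk tissue, fewer cells of a type and less signal per cell cannot be told apart.

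All naked mole-rats were wild-type adult males of 13 to 17 months with no treatment. Heart H3K27ac was measured in NMR31, NMR32 and NMR35, heart H3K4me1 in NMR30, NMR31 and NMR32, and heart H3K4me3 in NMR31, NMR32, NMR34 and NMR35. Each of the 3 marks was measured in the liver of all 5 animals, and 4 liver transcription factors were measured in the livers of NMR30 and NMR35. The series holds the same 3 marks for mice, guinea pigs and Damaraland mole-rats. Per the labels, the mice and guinea pigs were younger than the naked mole-rats, and the Damaraland mole-rats were older. Positions are on the build named by the files, HetGla_1.0, a set of scaffolds that are not placed on chromosomes. No gene annotation of that build was used here, so no member was assigned to a gene, no member was placed in an exon or intron, and heart and liver marker genes were not analysed here.

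Several lists stood apart before any result was read. The 3 heart H3K4me1 lists held 110851 peaks in NMR30, 63590 in NMR31 and 42957 in NMR32, and the 3 heart H3K27ac lists were closer, with 93501 to 116919 peaks. NMR31 and NMR32 were the only animals with both enhancer marks in heart. The liver H3K4me3 list of NMR30 held 253457 peaks, whereas the other 4 lists of that mark held 27591 to 48726. The heart H3K4me3 list of NMR34 was called against the heart input library of NMR32, per the file names. Read depth is unknown, because peak lists carry no read numbers.

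Most heart H3K27ac regions did not reach the enhancer class at all. H3K4me1 lay on 19142 of them (29.5%), H3K4me3 on 19172, both H3K4 marks on 3996, and neither on 30575 (47.1%). Of the regions with neither H3K4 mark, 20554 had no liver region either, which is more than the number of members. Among the 9191 shared enhancers, 2677 met only H3K4me1 in liver.

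Members had narrower consensus regions than shared enhancers. Their median was above that of liver-only enhancers, whose consensus rests on 5 animals in place of 3, and the comparison by library, given further on, did not pass its test. The H3K27ac consensus region of a member had a median width of 866 bases, with the middle of the distribution between 531 and 1565 bases and the extremes at 226 and 16043. Shared enhancers had a median of 1295 bases, heart promoters (H3K27ac with H3K4me3) 1029, heart H3K27ac regions with neither H3K4 mark 627, and the 33196 liver-only active enhancers 604. Broad members were few: 96 of them (1.61%) exceeded 5 kb, against 7.01% of shared enhancers. Together the members covered 7.53 Mb.

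**Figure D1:**
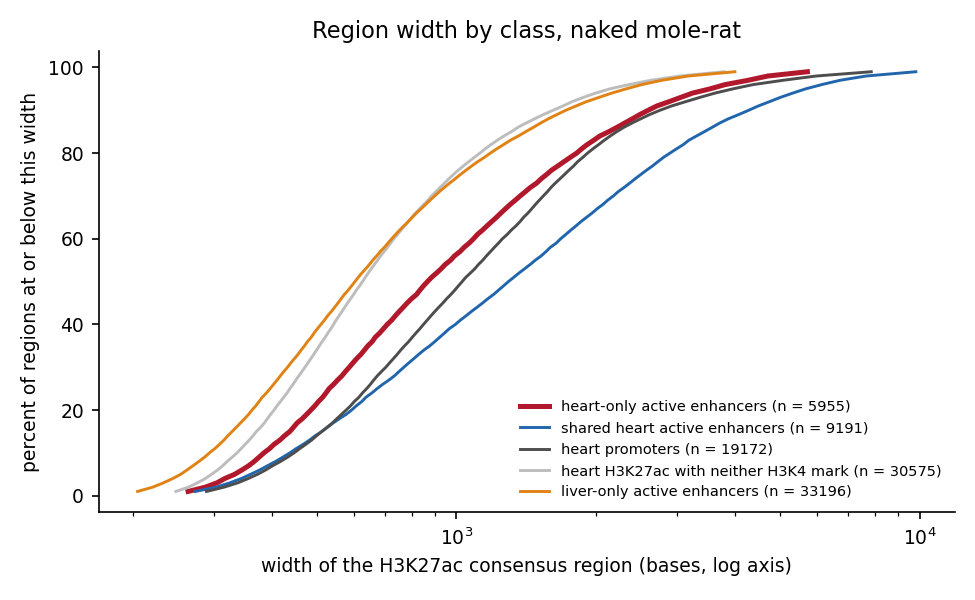
Percent of regions (vertical axis) at or below each H3K27ac consensus width (horizontal axis, bases, log scale), drawn at percentiles 1 to 99 for 5 classes of naked mole-rat region. The heart-only curve, with a median of 866 bases, lies between the shared curve at 1295 and the liver-only curve at 604.

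Members were narrower than shared enhancers in single libraries too, where width does not grow by merging peaks of several animals. The value still depends on the merged region, since the peak of highest fold was taken among the peaks it holds. In NMR35 the H3K27ac peak of highest fold at a region had a median width of 436 bases at members and 616 at shared enhancers. NMR31 gave 636 against 873 and NMR32 gave 581 against 788. Members were thus lower in 3 of 3 libraries, with a mean log2 ratio of -0.47 ± 0.03 (SD, n = 3 libraries). These libraries also helped to build both sets of regions, so the SD is not a spread of independent estimates. With 3 libraries an exact sign-flip p cannot fall below 0.25, which is the value found (two-sided, 0.25 after Benjamini-Hochberg adjustment over 4 comparisons). Membership was decided by overlap, which itself depends on width, so this difference is a description of the members.

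H3K27ac enrichment at members was below that at shared enhancers and promoters. The fold enrichment deposited by the authors, a linear ratio over background, had a median at members of 5.97 in NMR35, 6.15 in NMR31 and 6.05 in NMR32. At shared enhancers the medians were 7.0, 7.13 and 7.06, and at promoters 11.5, 9.66 and 10.6. H3K27ac regions with neither H3K4 mark had the lowest medians, 5.55, 5.30 and 5.35. The members' level was lower than that of shared enhancers in 3 of 3 libraries by a mean log2 ratio of -0.22 ± 0.008 (SD, n = 3, exact sign-flip p = 0.25). The middle ranges of the classes overlapped widely, from 4.74 to 8.00 at members and from 5.20 to 10.0 at shared enhancers in NMR35. Ranked within its own list by fold, the typical member peak stood at percentile 58.6 in NMR35, 61.4 in NMR31 and 60.6 in NMR32. Shared enhancers stood at 70.4, 70.9 and 71.2, and regions with neither H3K4 mark at 52.7, 49.3 and 50.3. A consensus region needs peaks of at least 2 animals and the highest peak was taken, so these ranks are a description.

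The classes were closer for H3K4me1 than for H3K27ac. Its median fold enrichment at members was 4.93 in NMR30, 5.07 in NMR31 and 5.09 in NMR32, against 5.48, 5.57 and 5.25 at shared enhancers. That is a mean log2 ratio of -0.11 ± 0.06 (SD, n = 3), lower in 3 of 3 libraries. H3K4me1 peaks were 747, 536 and 433 bases wide at members and 971, 634 and 486.5 at shared enhancers in the same order of animals. The width ratio, -0.26 ± 0.11 on the log2 scale (SD, n = 3), ranged from -0.38 in NMR30 to -0.17 in NMR32. Both H3K4me1 comparisons gave an exact sign-flip p of 0.25, the smallest that 3 libraries allow.

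**Figure D2:**
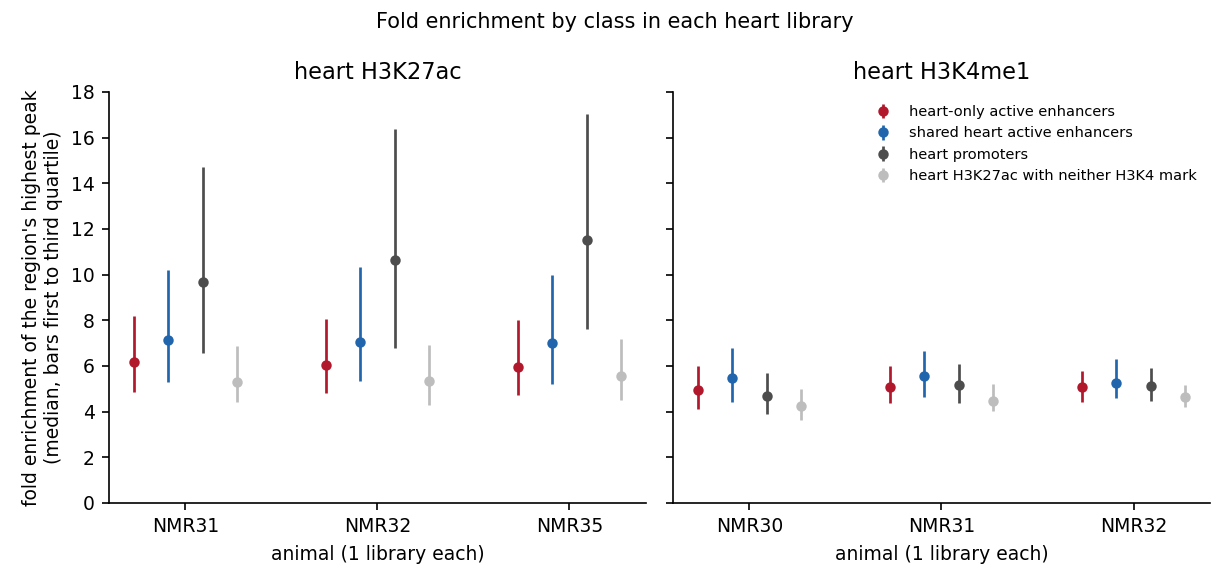
Fold enrichment (vertical axis, linear ratio deposited by the authors) of the highest peak at each region in the 3 heart H3K27ac and 3 heart H3K4me1 libraries, by animal. Points are medians over regions and bars run from the first to the third quartile; heart-only medians lie at 5.97 to 6.15 for H3K27ac and 4.93 to 5.09 for H3K4me1, below shared enhancers in each library.

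Wide members were also the strongly enriched ones. When members were split by the quartiles of consensus width, the median H3K27ac fold enrichment in NMR31 rose from 4.71 in the narrowest class through 5.39 and 6.41 to 9.15 in the widest. NMR35 went from 4.82 to 8.71 and NMR32 from 4.78 to 9.10. Width and fold come from the same reads, so this relation is a description.

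Heart-only enhancers in heart were set against liver-only enhancers in liver, the mirror class, using 1 median per library. The median H3K27ac width was 436, 636 and 581 bases in the heart libraries of NMR35, NMR31 and NMR32. In liver it was 394, 492, 370, 319 and 381 bases in NMR30, NMR31, NMR32, NMR34 and NMR35. The groups overlapped, since the narrowest heart value lay below the widest liver value. Means were 551 ± 103 bases in heart (SD, n = 3) and 391 ± 63.1 in liver (SD, n = 5), a log2 difference of 0.49 that did not pass the threshold of 0.05 (two-sided exact permutation p = 0.0536, 0.107 after Benjamini-Hochberg adjustment over 2 comparisons). Fold enrichment was 6.06 ± 0.09 (SD, n = 3) against 6.40 ± 0.34 (SD, n = 5), and that difference did not pass either (exact permutation p = 0.179). Fold is scaled within each list, so the second comparison sets values from separate lists side by side.

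The rule required H3K4me1 to overlap a member by at least 50% of the shorter region, so the extent of that overlap is a description. In 89.5% of members a single H3K4me1 consensus region met the rule, compared with 79.9% of shared enhancers. The H3K4me1 regions covered a median of 80.9% of the member's H3K27ac region. H3K4me1 reached past both ends of the H3K27ac region in 32.1% of members, past 1 end in 43.6%, and ended inside it in 24.3%. The summits recorded in the lists agreed better for H3K27ac: at members with a peak in all 3 libraries, the median distance between the summits of 2 animals was 171 to 175 bases for H3K27ac and 295 to 329 for H3K4me1. The ranking of members by fold was also shared between animals to a differing degree, with Spearman coefficients of 0.51 to 0.55 for H3K27ac over 3801 members and 0.14 to 0.20 for H3K4me1 over 2047. These coefficients run across members of the same libraries and are given as descriptions.

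The number of members rested on single H3K4me1 libraries more than on any other. Without the H3K4me1 library of NMR30, 2100 heart-only enhancers were found in place of 5955, a 2.84-fold smaller set. Leaving out NMR31 for the same mark gave 3248, 1.83-fold fewer, and leaving out NMR32 gave 4518. The order of these losses is the order of the list sizes, with the longest list (110851 peaks) giving the largest loss. All heart active enhancers fell as well, from 15146 to 6710 without NMR30, 9386 without NMR31 and 12151 without NMR32. The heart-only share of them was then 31.3%, 34.6% and 37.2%, against 39.3% with all libraries, so much of the loss was common to the whole class. Leaving out 1 of the H3K27ac libraries gave 4754 to 4913, and these sets also held 298 to 669 regions at places outside the full set. The 4 heart H3K4me3 libraries and the 15 liver libraries hardly bore on the number, which ran from 5956 to 6383 without each of them, and the highest value was without liver H3K4me1 of NMR32.

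**Figure D3:**
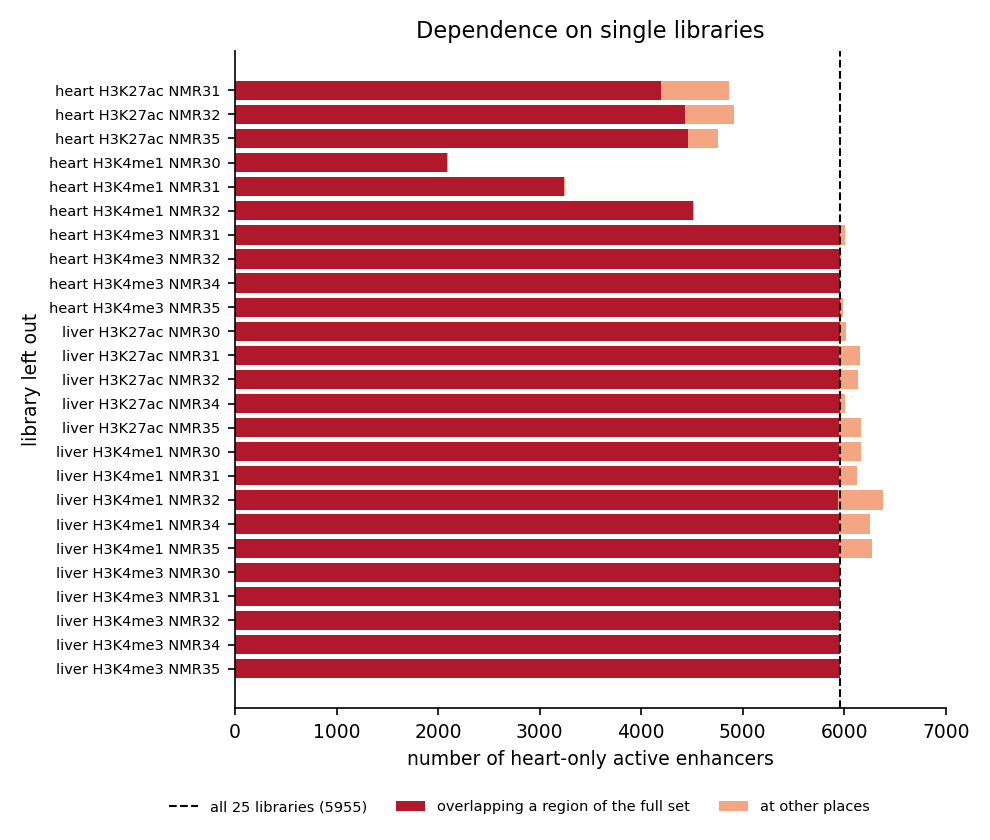
Number of heart-only active enhancers (horizontal axis) when each of the 25 naked mole-rat histone libraries (vertical axis) is left out, with the number from all libraries, 5955, as a dashed line. The bars without heart H3K4me1 of NMR30 (2100) and NMR31 (3248) are the shortest; dark parts overlap a region of the full set and pale parts lie elsewhere.

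The same dependence shows in which animals carried the peaks. H3K27ac peaks of all 3 libraries lay on 3801 members (63.8%, against 76.5% of shared enhancers) and peaks of 2 libraries on the other 2154. For H3K4me1, 2047 members (34.4%) had peaks of all 3 libraries, 3222 (54.1%) of 2, and 686 (11.5%) of only 1, which is possible because a consensus region can reach a member with the peak of 1 animal. Shared enhancers stood at 52.9%, 40.3% and 6.76%. NMR30 had an H3K4me1 peak on 5426 members (91.1%), NMR31 on 4532 (76.1%) and NMR32 on 3313 (55.6%). The animals had the same order at shared enhancers, with 95.5%, 83.6% and 67.1%, so that order is not particular to members. The most frequent incomplete pattern was a peak in NMR30 and NMR31 without NMR32, on 2006 members (33.7%). Better supported members were wider, with a median of 1282 bases for H3K27ac in 3 libraries and 495 in 2. A consensus region merges the peaks of its animals, and a wide region is more easily met, so this relation is a description.

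Because different animals served for the 2 enhancer marks, it was counted how often both marks came from the same heart. NMR31 had both peaks on 4267 members and NMR32 on 3061. Both marks were present in each of these animals on 2067 members (34.7%, Wilson 95% interval 33.5 to 35.9, which covers counting error only). A further 694 members (11.7%) had both marks in neither animal, and these were narrow, with a median of 467.5 bases. Peaks in all 6 heart libraries of both marks lay on 1654 members (27.8%), whose median width was 1717 bases. Here too width and support are not independent.

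Classification from 1 animal at a time gave other sets. By single lists in place of consensus regions, NMR31 had 11006 heart-only enhancers of 20847 active ones (52.8%) and NMR32 had 6579 of 14948 (44.0%). Of the NMR31 set, 36.6% lay on members, and that set reached 63.0% of the members. Of the NMR32 set, 41.3% lay on members, reaching 42.4% of them. Members reached from both single animals numbered 1495 (25.1%).

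Heart-only here means absent from the liver consensus, and it did not mean absent from each liver list. A peak of at least 1 of the 15 liver lists lay on 2643 members (44.4%), and 979 (16.4%) met peaks of 2 or more. The remaining 3312 (55.6%) had no liver peak under the overlap rule, and 2940 (49.4%) had none overlapping by even 1 base. By mark, liver H3K27ac peaks lay on 1046 members, H3K4me1 peaks on 1615 and H3K4me3 peaks on 861. The long liver H3K4me3 list of NMR30 alone gave peaks on 792 members, against 0 to 58 for the other 4 lists of that mark, and on 467 members (7.84%) it was the only liver list with a peak. That list lay on 13.3% of members, 19.6% of shared enhancers and 9.76% of heart H3K27ac regions with neither H3K4 mark. Since members met no liver consensus region, their liver peaks are those left after that selection. Ranked by fold within their own lists, the typical liver H3K27ac peak on a member stood at percentile 21.3 to 29.9, the typical H3K4me1 peak at 24.6 to 34.6, and the typical H3K4me3 peak of NMR30 at 49.5. A heart H3K4me3 peak in at least 1 library lay on 301 members (5.05%). No such peak lay on 94.9% of members and on 89.1% of shared enhancers. The members with peaks in all 6 heart libraries and no liver or heart H3K4me3 peak in any list numbered 651 (10.9%), with a median width of 1406 bases.

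Few members stood close to the thresholds of overlap, apart from H3K4me1. The H3K4me1 overlap was within 10 percentage points above the threshold for 278 members (median H3K27ac fold 5.18), and 215 regions lay within 10 points below it (5.24). The members nearest that threshold were JH166502.1:245618-246823 and JH171419.1:394098-394471, both at 50.0%. The regions just outside were JH166138.1:6329-6755 at 49.9% and JH169817.1:53004-55224 at 49.8%. On the liver side, 107 members lay within 10 points below the threshold and 153 regions within 10 points above, and the nearest members were JH166482.1:384292-385070 at 49.8% and JH173437.1:1976184-1976862 at 49.6%. The nearest regions outside were JH173080.1:1558931-1559415 at 50.1% and JH173573.1:738512-740020 at 50.2%. No liver consensus region touched 5545 members (93.1%). For H3K4me3, 3 members and 2 regions outside lay within 10 points of the threshold. The nearest members were JH171133.1:347134-348369 at 46.8% and JH167500.1:2419044-2421787 at 41.1%, and the regions outside were JH169003.1:1205533-1205896 at 51.9% and JH171963.1:896538-897649 at 52.8%.

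Members were spaced more widely than the other classes of enhancer, which are also more numerous (9191 shared and 33196 liver-only), and spacing at equal numbers was not compared. The median distance to the nearest other member was 9.18 kb, against 3.50 kb between shared enhancers and 0.557 kb between liver-only enhancers. Another member lay within 1 kb of 25.6% of members and within 10 kb of 48.8%. With gaps of up to 12500 bases joined, 2873 members (48.2%) stayed single, 669 pairs formed, and 435 groups of 3 or more held 1744 members (29.3%). Shared enhancers had 46.1% in such groups and liver-only enhancers 58.7%. Without heart H3K4me1 of NMR30 the members' share in groups was 17.8%, and with gaps of 5 kb it was 18.6%.

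**Figure D4:**
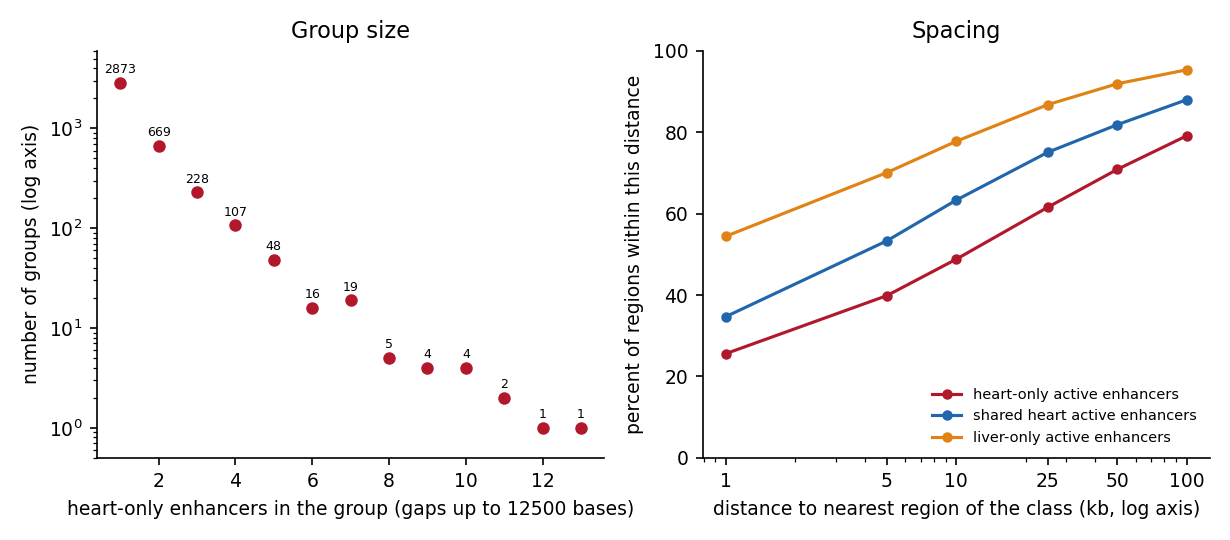
Left, number of groups (vertical axis, log scale) by how many heart-only enhancers they hold (horizontal axis) when gaps of up to 12500 bases are joined: 2873 single regions, 669 pairs and 1 group of 13. Right, percent of regions (vertical axis) with another region of the same class within each distance (horizontal axis, kb, log scale); heart-only enhancers lie lowest at each distance, with 48.8% at 10 kb.

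Neighbouring enhancers tended to fall in the same class. The nearest heart active enhancer on the scaffold was also heart-only for 3428 of 5807 members (59.0%), but for 25.4% of shared enhancers, whereas 39.3% of all heart active enhancers were heart-only. Neighbours close together can meet 1 liver region, so only neighbours at least 5 kb away were also counted, which gave 52.2% for members and 30.3% for shared enhancers. Without heart H3K4me1 of NMR30 the shares were 49.9% and 21.3%, where 31.3% of active enhancers were heart-only. Members and their neighbours come from the same libraries, and these shares carry no test.

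Promoters showed a like pattern. The nearest heart promoter was heart-only for 634 of 5810 members with a promoter on their scaffold (10.9%, Wilson 95% interval 10.1 to 11.7), against 3.72% of shared enhancers. That interval covers counting error only, and neighbouring members can share a promoter. The members' share was 8.35% without heart H3K4me3 of NMR31 and 9.26% without that of NMR35. Heart-only promoters were 906 of 19172 (4.73%). Members lay farther from promoters, at a median of 31.5 kb against 19.8 kb, and 18.9% of members were over 100 kb from any.

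Some scaffolds were rich in members. On the 41 scaffolds with at least 50 heart active enhancers, members made up 10.5% to 64.7% of them, with a median of 37.1%. The highest shares were on JH171652.1, with 33 of 51, and JH168168.1, with 53 of 82. In all, members lay on 1075 scaffolds, 75.6% of them on scaffolds whose last peak ends at 1 Mb or beyond.

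The largest group, JH173963.1:193215-222460, held 13 members in 29.2 kb, 5 of them with peaks in all 6 heart libraries. It contained 2 shared enhancers and no promoter, with 15 heart H3K27ac and 12 heart H3K4me1 consensus regions in all. Its members covered 35.7% of the span, and their H3K27ac fold ranged from 3.75 to 10.7 in NMR35, 3.09 to 8.14 in NMR31 and 3.74 to 8.02 in NMR32. Enrichment within the group thus varied, and the highest value, 10.7 in NMR35 at JH173963.1:210123-210761, lay above the third quartile of members in that library, 8.00. Within it, the widest member, JH173963.1:218270-219597, had an H3K27ac fold of 6.55 in NMR35, 7.86 in NMR31 and 7.28 in NMR32, and H3K4me1 of 5.00 in NMR30, 7.37 in NMR31 and 7.35 in NMR32. Neighbouring members were not always distinct in H3K4me1. JH173963.1:214089-215351 and JH173963.1:215504-215883 had the same folds, 8.08 in NMR30 and 7.11 in NMR31.

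Further groups were of similar length. JH172105.1:594859-633906 held 12 members with 1 shared enhancer and 6 H3K27ac regions with neither H3K4 mark between them. JH172515.1:200419-239604 and JH173080.1:1536400-1565485 held 11 each, with 5 and 3 shared enhancers inside. None of these contained a heart promoter. In JH173080.1:1536400-1565485 only 5 of the 11 had an H3K27ac peak in NMR35, compared with 11 in NMR31 and 10 in NMR32, so support within a group was uneven between animals. Of the 4 groups with 10 members, the first in scaffold order, JH165904.1:1535582-1576013, reached the highest H3K27ac fold of those named, with maxima of 22.8 in NMR35, 17.2 in NMR31 and 23.5 in NMR32.

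Among the 1654 members with peaks in all 6 libraries, the highest rank by H3K27ac fold was held by JH203289.1:1-1516, with 38.7 in NMR35, 50.1 in NMR31 and 53.5 in NMR32. This region filled its scaffold as far as peaks show, since the last peak of any list there ended at base 1516, and its H3K4me1 fold was 2.57 in NMR30, 2.96 in NMR31 and 6.30 in NMR32. Peaks of 5 liver factor libraries lay on it too. Whether the sequence of this short scaffold occurs once in the genome was not tested, so its fold may not be that of a single locus. In all, 57 members lay on scaffolds whose last peak ended before 10 kb, where 58.2% of heart active enhancers were heart-only.

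The next ranks lay on long scaffolds. JH167488.1:2234999-2238804 had an H3K27ac fold of 33.2 in NMR35, 44.5 in NMR31 and 24.8 in NMR32. JH165989.1:298504-314374, 15871 bases wide, had 34.7, 32.5 and 23.0 in that order, and was also the second widest member. JH173426.1:3075080-3078060 had 24.5, 29.3 and 30.3. The order of these regions differed between animals, since JH173426.1 stood above JH167488.1 in NMR32 and below it in NMR31. JH172584.1:307835-312893, at 18.8, 29.3 and 26.7, had no peak in any liver histone or factor list. The other 5 of the first 10 were JH168168.1:1711019-1714435, JH166936.1:508793-512346, JH165776.1:2959086-2964095, JH166717.1:1468269-1473908 and JH171652.1:222579-225658, with mean H3K27ac folds of 23.5 to 30.7. Some of the first 10 had heart H3K4me3 peaks in single lists, though no consensus region of that mark met the rule. These were JH168168.1:1711019-1714435 (NMR35 and NMR32), JH166717.1:1468269-1473908 (NMR35) and JH165989.1:298504-314374 (NMR31).

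Besides JH165989.1:298504-314374, the 5 widest members were JH204770.1:1049374-1065416, JH170748.1:884159-897277, JH167067.1:690400-702445 and JH167589.1:272154-283429. The widest, 16043 bases, had an H3K27ac fold of 28.2 in NMR35, 17.8 in NMR31 and 20.1 in NMR32 and H3K4me1 of 6.77 in NMR30, 7.48 in NMR31 and 6.88 in NMR32. All 5 had peaks in each heart library of both enhancer marks. Each also met 1 to 3 single liver histone lists. The long H3K4me3 list of NMR30 was the only one at JH204770.1:1049374-1065416, JH165989.1:298504-314374 and JH167067.1:690400-702445. It was 1 of 2 at JH170748.1:884159-897277, which also had a heart H3K4me3 peak in NMR35. JH167589.1:272154-283429 met H3K27ac of NMR32 and NMR34 and H3K4me1 of NMR30.

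The liver factor lists were not used by the rule, and they met members less often than shared enhancers. The rule did use liver marks, which shared enhancers carry and members lack in the liver consensus, so this difference is a description. CEBPA, FOXA1, HNF4A and RXRA are transcription factors that bind liver enhancers. CEBPA acts in hepatocytes and fat cells, FOXA1 can open closed chromatin, HNF4A is central to hepatocyte identity, and RXRA pairs with other nuclear receptors. At least 1 of the 8 lists had a peak on 1041 members (17.5%), against 45.9% of shared enhancers and 46.4% of liver-only enhancers. Over all heart H3K27ac regions the share was 32.9%. Peaks of 2 or more lists lay on 226 members (3.80%) and on 27.8% of shared enhancers.

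CEBPA peaks lay on 5.81% of members in NMR30, the highest share of the 8 lists, and on 3.34% in NMR35, against 24.6% and 19.7% of shared enhancers. FOXA1 lay on 3.22% and 1.18% of members in NMR30 and NMR35, against 9.18% and 11.8%. HNF4A lay on 2.12% and 4.23%, against 3.35% and 12.2%. For HNF4A in NMR30 the classes were closest, and the share of liver-only enhancers, 2.21%, was near that of members. RXRA lay on 0.806% and 2.55% of members, against 10.9% and 21.1% of shared enhancers.

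Members had the lower share in 8 of 8 factor libraries, by 11.2 percentage points on average. With 2 animals the exact sign-flip p is 0.5, the smallest this design allows. By liver mark, CEBPA peaks of NMR30, the list with the largest difference, lay on 11.8% of shared enhancers with liver H3K4me1 alone and 29.9% of those with liver H3K27ac. Against shared enhancers with liver H3K4me1 alone, members were higher for HNF4A of NMR30 only, 2.12% against 1.76%. FOXA1 of NMR30 was nearly equal there, 3.22% against 3.29%. At like widths members were lower too, by an amount that differed between lists. Within the widest of 4 width classes 11.9% of members and 36.7% of shared enhancers had a CEBPA peak of NMR30, and within the narrowest 2.42% and 11.9%. For HNF4A of NMR30 these shares were 4.16% and 5.18%, and 1.01% and 1.48%. CEBPA peaks of both animals lay on 45 members, which is 13.0% of the members with a peak in NMR30 and 22.6% of those in NMR35. For shared enhancers these shares were 60.6% and 75.6%, and the members' factor peaks were thus mostly seen in 1 animal. The same shares were lower at members than at shared enhancers for each of the 4 factors, at 8.55% to 27.1% against 14.3% to 79.7%.

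**Figure D5:**
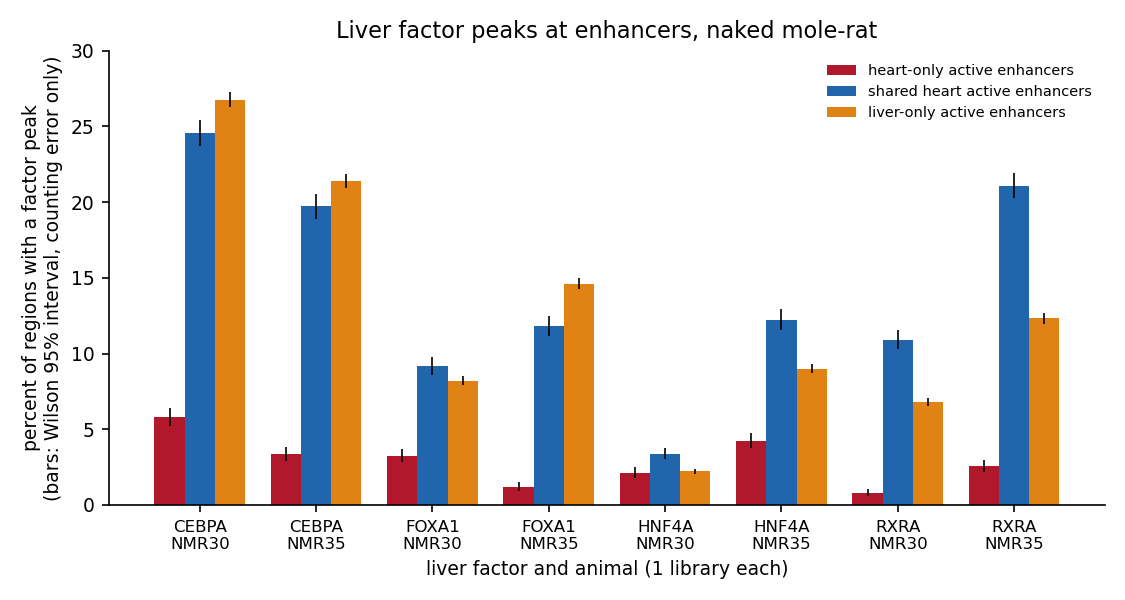
Percent of regions (vertical axis) overlapped by a peak of each of 8 liver factor libraries (horizontal axis) for heart-only, shared and liver-only active enhancers, with Wilson 95% intervals that cover counting error only. Heart-only shares run from 0.806% to 5.81% and lie below the shared ones in each library.

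A few members carried many liver factor peaks. Peaks of 5 or more libraries lay on 17 members and of all 8 on 2, JH169543.1:1294286-1295514 and JH171263.1:2127794-2130976. At JH171263.1:2127794-2130976 the HNF4A fold was 31.5 in NMR30 and 42.2 in NMR35, the RXRA fold 16.4 and 42.8, and the CEBPA fold 4.23 and 5.62. JH169543.1:1294286-1295514 had no peak in any liver histone list, with a CEBPA fold of 11.5 in NMR30 and 15.6 in NMR35. These 2 regions were singled out after their values were seen. Both lacked a peak in at least 1 of the 6 heart libraries.

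The other species were classified by the same rule for reference. Against 39.3% in the naked mole-rat, heart-only enhancers made up 55.9% of heart active enhancers of the mouse, 44.9% in guinea pig and 47.0% in Damaraland mole-rat (14253 of 30348). The naked mole-rat had the lowest share of heart H3K27ac regions with H3K4me1, 29.5% against 51.7% to 60.5%, with 3 heart H3K4me1 libraries against 3 to 5. Its members' median width, 866 bases, lay within the range of the others, 814 to 916. The share also depends on the liver lists, whose number differed between species. With liver regions from the animals of the heart libraries only, the naked mole-rat had 6906 heart-only enhancers of 15146. The order of the species is thus not settled. The species also differed in age. Each species is 1 consensus, and the differences were not tested.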

How the data were processed

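The members and the lists compared with them were chosen with earlier results of these data known. Peaks were called with MACS2, per the submitters' processing notes; its version and the aligner were not given in the sources used here. Per the file names, the authors deposited 1 peak list per library, called against an input library. The fold enrichment deposited in each list is a linear ratio. Each deposited −log10 p-value, and likewise −log10 q-value, is as MACS2 wrote it; no peak had a −log10 q below 1.30. The deposited summit offset was used as given. Lists were used for 25 histone and 8 factor libraries of the naked mole-rat. Read depth is unknown, so no depth-based precision can be given.

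From the lists, consensus regions (at least 2 animals, 50% of the shorter region, overlapping or adjoining stretches merged) and classes were computed with SciPy 1.17.1, pandas 2.3.3 and NumPy 2.4.6 under Python 3.11.15. The script was tested on simulated peaks. A region's value in a library is that of its overlapping peak of highest fold. Positions are counted from 1. Comparisons used exact sign-flip tests over libraries or animals and exact permutation tests, with Benjamini-Hochberg adjustment. Labels name the animal of each library; 3 animals gave H3K27ac in both tissues, which pairs those libraries, and their deviations from the tissue mean had the same sign in 2 of 3 for width and 1 of 3 for fold. Within a tissue and mark each library comes from another animal, per the labels, while 1 animal can give libraries of both tissues and several marks. Regions named were the 10 of highest mean fold rank with peaks in all 6 enhancer libraries, the 5 widest, the 5 largest groups and those nearest each threshold; the 2 regions with peaks of all 8 factor libraries were added after their values were seen. For other species the same rule was run on their lists. A sample whose title and organism name different species was left without a group. A planned list of genes and a motif search needed a genome and are not analysed here, and no sequence is printed.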

Additional observations from a re-analysis of the deposited data

Results flagged for a closer look

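Of 10 groups of 4 or 5 libraries examined, 2 held a library far from the others; chance alone would give about 1 in 20. Liver H3K4me3 of NMR30 had peaks on 792 members, while the other 4 lists of that mark had peaks on 0 to 58. Its list was also the longest, with 253457 peaks, and leaving it out gave 5961 members in place of 5955. Liver H3K4me1 of NMR31 had peaks on 236 members, below the 420 to 485 of the other 4 lists. That list held 132759 peaks, while the list of NMR32, with 134202 peaks, lay on 460 members. Leaving out NMR31 for that mark gave 6129 members.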

How the results depend on the processing

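The number of heart-only enhancers was within 1.5 times of 5955 under 31 of 41 alternatives. These 31 include leaving out each liver or heart H3K4me3 library, which gave 5956 to 6383. The number was 7549 with any overlap of 1 base, 6906 with liver regions from the animals of the heart libraries only, and 4779 with equal peak numbers per library. Of the 5955 members, 87.3%, 99.8% and 56.5% overlapped a region of these sets, in that order. The number moved further with overlap of 50% of the longer region (2692), peaks with a −log10 q of at least 4 (2704) and at least 3 animals (1978). These sets overlapped 23.6%, 38.0% and 25.1% of the members, in that order. The number also moved with no peak in any liver list (3312), and both marks as peaks of NMR32 (3061) or of NMR31 and NMR32 (2067). Leaving out 1 library gave 2100 to 6383. Chosen after seeing the data, leaving out all libraries of NMR30 gave 2209 and those of NMR31 3043.

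The ratios of members to shared enhancers stayed below 0 under 8 alternatives each, and the factor difference under 15, from -13.8 to -8.99 percentage points. With the animal as a replicate block (3 pairs), width against liver-only enhancers was 0.41 on the log2 scale (exact sign-flip p = 0.25) and fold -0.07 (exact sign-flip p = 0.5), which changed no call. Without 1 library that width difference ran from 0.40 to 0.80, highest without heart H3K27ac of NMR35, and the adjusted p stayed above 0.05.

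The share of members whose nearest active enhancer is heart-only was 62.6% with any overlap, 55.0% at the stricter q and 52.2% beyond 5 kb, and 49.9% to 59.1% without 1 library. The share in groups of 3 was 18.6% with gaps of 5 kb, 40.2% with 25 kb and 21.3% at the stricter q. Leaving out 1 heart library, added after seeing the data, gave 17.8% to 29.4% for groups, 9.26% without H3K4me3 of NMR35 and 8.35% without that of NMR31 for nearest promoters. The causes were not tested. With 3 libraries a mark, and unknown depth, absence of a peak does not show absence of the mark.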
